A study of Mus musculus with 6 samples.

Results

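Genes for splicing regulators were examined in bulk RNA-Seq libraries of mouse hepatocytes, comparing undamaged liver (0 h) with liver 48 h after partial hepatectomy (PHx), an operation that takes out the larger share of the organ. The 42 genes were chosen by name as the Esrp pair, the SR proteins with their Tra2 relatives, the hnRNPs, the PTBP, CELF, MBNL and RBFOX families, a KH domain group, and 3 genes of 3′ splice site recognition. They were chosen with earlier results of these data known. All 42 were found among the 55450 genes of the count files, and 41 of them had enough reads to be tested among 17037 genes. Both groups were 10- to 12-week-old C57BL/6 mice on a normal diet by the labels, and the study's text describes male mice of a slightly younger age. Each group held 3 libraries, each from hepatocytes isolated by collagenase perfusion. The 0 h group was taken from undamaged liver, and no sham-operated liver was among these libraries, so surgery and regeneration cannot be told apart. Each library averages all cells of a preparation, so fewer cells of a type and less RNA per cell cannot be told apart in these values.

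Splicing removes introns from the primary transcript, and alternative splicing joins exons in different combinations so that a single gene gives several messages. SR proteins are RNA-binding proteins with arginine- and serine-rich tails that mostly bind exons and recruit the spliceosome, while hnRNPs coat nascent transcripts and often block the use of splice sites, so that the balance between them sets which exons are kept. Esrp2 is an epithelial regulator that rises as hepatocytes mature after birth, and its relative Esrp1 acts in other epithelia. Many SR and hnRNP genes also control their own level through exons or introns that send part of their transcripts to nonsense-mediated decay, the pathway that degrades messages with an early stop codon.

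The 0 h libraries held 31419443 to 36346220 gene counts each, and the 48 h libraries held 31684152 to 33093006. The levels below are CPM, the counts of a gene scaled to a fixed library total, after TMM normalization, which scales the libraries so that most genes do not differ, and levels of single genes are compared with each other only per kilobase of exon (RPKM), while sums over families are given in CPM and their ratio on both scales. The 22 hepatocyte markers were all detected, with 2 higher and 7 lower at 48 h, and they summed to 140725 to 161934 CPM at 0 h and 99886 to 127514 CPM at 48 h. Alb, the gene for serum albumin, stood at 32307 CPM or more in each library and fell by 0.86 on the log2 scale (edgeR adjusted p = 0.00847). A check list of 5 proliferation genes summed to 4.8 to 8.67 CPM at 0 h and 405 to 545 CPM at 48 h, which matched the labels. Among markers of other liver cells, 12 of 14 endothelial genes fell, and their summed level was 286 to 434 CPM at 0 h and 201 to 227 CPM at 48 h. The 12 stellate cell and fibroblast markers summed to 118 to 184 CPM and 81.4 to 101 CPM, with 3 of the 11 tested lower and 1 higher. The 12 Kupffer cell and macrophage markers summed to 86.5 to 129 CPM and 127 to 155 CPM, with 4 higher and none lower. Of the 10 cholangiocyte markers, which summed to 35.3 to 63.5 CPM and 48.8 to 59.9 CPM, 3 of the 5 tested were higher and none lower. The 15 leukocyte markers summed to 3.13 to 4 CPM and 3.24 to 4.95 CPM, 2 of them had 0 counts in every library, and the single gene tested did not pass. Of all genes tested, 21.4% were higher and 19.3% were lower. Whether RNA from these cells had a part in the changes of the splicing regulators was not tested.

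More of the splicing regulators were called higher than lower at 48 h after PHx, and the group as a whole was not tested. Of the 41 genes tested, 22 were called higher and 1 lower by the quasi-likelihood test of edgeR, with the adjusted p below 0.05, while 18 did not pass. Among all genes tested, the shares were 21.4% higher and 19.3% lower. With library size as the only scaling, which shifted the median of all genes by 0.20 on the log2 scale, 28 of the splicing regulators were higher and 1 was lower, and the calls over all genes were 5308 higher and 2110 lower, against 3638 and 3288 with TMM factors. Among the 6471 genes within the range of mean CPM that these genes cover, 11.3 to 166 CPM, the shares were 26.8% higher and 21.8% lower. The changes were modest, with a median log2 fold change of 0.44 against -0.00 for all genes tested, and 2 genes passed the test with more than a 2-fold increase and none with more than a 2-fold decrease, where 9.69% and 7.94% of all genes tested did so. In 27 of the 41 genes all 48 h libraries lay above all 0 h libraries, and in 2 they lay below, where 27.8% and 25% of all genes tested did so. The summed level of the 42 genes was 2636, 2640.2 and 2644 CPM in the 0 h libraries and 3167, 3241 and 3169.8 CPM in the 48 h libraries. The 48 h sums were thus all above the 0 h sums, and the libraries of a time point lay close together.

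**Figure D1:**
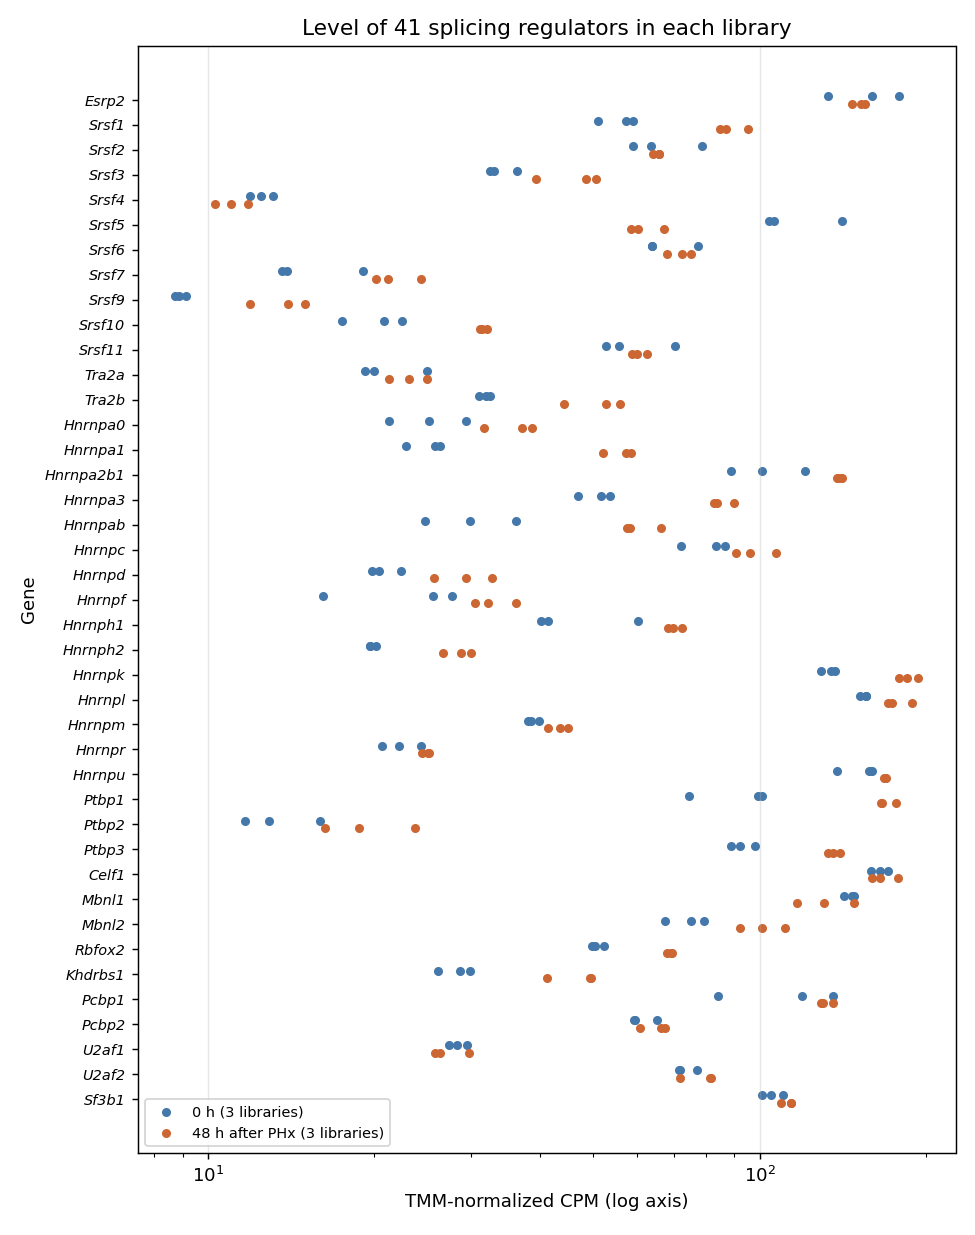
Level of each of the 41 tested splicing regulators in TMM-normalized CPM on a log axis, with a blue point for each of the 3 libraries at 0 h and an orange point for each of the 3 libraries at 48 h after PHx. The orange points lie to the right of the blue points in 27 genes, to the left in Srsf4 and Srsf5, and among them in Esrp2 and the genes of 3′ splice site recognition.

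Esrp2 (ENSMUSG00000084128.10, chromosome 8, 106130319 to 106136974, minus strand, GRCm38) was abundant at both time points and did not differ detectably between them. Its level was 179, 133 and 159.7 CPM in the 0 h libraries and 147, 155 and 153 CPM in the 48 h libraries. The 48 h values all fell inside the range of the 0 h values, and the widest gap was between 2 libraries of undamaged liver. The log2 fold change was -0.05 (standard error, SE, 0.128; edgeR adjusted p = 0.77), with a 95% interval from -0.34 to 0.23, and its sign changed with the scaling, to 0.15 with library size only. Per kilobase of exon, Esrp2 had the rank 2 of the 42 genes at 0 h, with 36.2 ± 5.32 (SD, n = 3) RPKM, and the rank 3 at 48 h, with 34.9 ± 0.878 (SD, n = 3) RPKM. Its exons overlap those of 1810019D21Rik and Nfatc3 on the other strand over 7.79% of their length. Esrp1 (ENSMUSG00000040728.15, chromosome 4, 11331933 to 11386783, minus strand) had 0, 0 and 2 counts at 0 h and 2, 1 and 2 counts at 48 h. These counts are under the floor of 3 counts, which is 0.0825 to 0.0955 CPM in these libraries, so that no difference could be measured. Cholangiocytes are epithelial cells too, and their markers Krt19, Krt7, Epcam and Cftr stood at 0.129 CPM or less in each library, with Krt19 at 0 in all 48 h libraries.

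Counts per gene do not show which exons are used, so the activity of Esrp2 was not measured here. The levels of 8 genes known for exons that follow the Esrp proteins were looked up, and 2 were higher (25%) and 1 was lower (12.5%) at 48 h, shares near the 21.4% and 19.3% of all genes tested. Fgfr2, a fibroblast growth factor receptor whose epithelial isoform is the classical Esrp product, fell by 1.09 on the log2 scale (SE 0.158, edgeR adjusted p = 0.000357), from 49.9 ± 10.1 (SD, n = 3) to 23.4 ± 3.31 (SD, n = 3) CPM. Tead1, a DNA-binding partner of Yap1, rose by a log2 fold change of 0.84 (SE 0.174, edgeR adjusted p = 0.00322), from 24.4 ± 3.15 (SD, n = 3) to 43.7 ± 10.5 (SD, n = 3) CPM. Enah, an actin regulator, rose by 1.44 on the same scale (edgeR adjusted p = 0.0199) but only reached 0.529 ± 0.143 (SD, n = 3) CPM. The Hippo pathway genes Nf2, Csnk1d and Yap1 did not pass the test, with log2 fold changes of -0.03, 0.20 and 0.18.

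The SR proteins moved in different directions. Of the 10 genes, 5 rose (Srsf1, Srsf3, Srsf7, Srsf9 and Srsf10), Srsf5 fell, and 4 did not pass the test, so that 50% were higher and 10% lower against 21.4% and 19.3% of all genes tested. Srsf1, the founding SR protein and an oncogenic splicing factor, had 51, 57.3 and 59 CPM at 0 h and 95.4, 86.9 and 84.8 CPM at 48 h. All 48 h libraries lay above the 0 h libraries, and the log2 fold change was 0.67 (SE 0.106, edgeR adjusted p = 0.000604). Srsf10, which acts as a repressor when it loses its phosphates, had 17.5, 22.5 and 20.9 CPM at 0 h and 32.1, 31.4 and 31.2 CPM at 48 h, a log2 fold change of 0.63 (SE 0.115, edgeR adjusted p = 0.00149). Srsf9 had 8.85, 9.12 and 8.73 CPM at 0 h and 15, 11.9 and 14 CPM at 48 h, a log2 fold change of 0.61 (SE 0.132, edgeR adjusted p = 0.00394). In both genes the time points did not overlap. Srsf3 and Srsf7, which also link splicing to messenger RNA export, rose by log2 fold changes of 0.44 and 0.50, with adjusted p-values of 0.0131 and 0.0229 in edgeR. The call of Srsf3 was lost without 0 h replicate 1 (log2 fold change 0.40) and without 48 h replicate 2 (0.37). The call of Srsf7 was lost with upper-quartile factors (0.41), without 0 h replicates 1 or 3 (0.40 and 0.41) and without 48 h replicates 1 or 2 (0.41 and 0.52).

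Srsf5 (ENSMUSG00000021134.17, chromosome 12, 80945504 to 80950507, plus strand) was the only splicing regulator among the 41 tested that passed the test as lower at 48 h. It is an SR protein whose transcript was first described as an early gene of regenerating liver and insulin-treated cells. Its level was 106, 141 and 104 CPM at 0 h and 60.1, 67 and 58.4 CPM at 48 h. Every 48 h library lay far below every 0 h library, and 0 h replicate 2 was the highest of all. The log2 fold change was -0.92 (SE 0.137, edgeR adjusted p = 0.000437), and it was -0.77 without 0 h replicate 2. Among the 0 h libraries, replicate 2 held the highest level in 8 of the 10 SR genes, and it also had the highest share of reads on no gene, 32.7% against 29.3% and 25.1%. The share of reads on no gene was 24.3% to 27.9% at 48 h, and its part in these values was not tested.

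Srsf2, Srsf4, Srsf6 and Srsf11 did not pass the test, with log2 fold changes of -0.04, -0.19, 0.07 and 0.02. Their 95% intervals ran from -0.31 to 0.23, from -0.46 to 0.08, from -0.18 to 0.32 and from -0.25 to 0.29. In Srsf4 all 48 h libraries lay below all 0 h libraries, with 12.5, 13.1 and 11.9 CPM at 0 h and 11.8, 10.3 and 11 CPM at 48 h, but the gap between the nearest libraries was small. Srsf4 shares 43% of its exon bases with a gene of the opposite strand, and Srsf2 shares 25.3%. The composition of the SR pool changed with these differences. Srsf5 made up 28.2%, 29.9% and 26.7% of the summed RPKM of the 10 SR genes at 0 h, and 14.3%, 16.1% and 14.7% at 48 h. Srsf1 made up 9.49%, 8.47% and 10.6% at 0 h and 15.9%, 14.6% and 14.9% at 48 h, which put the shares of the pair side by side at 48 h. Srsf2 took 21.8% ± 0.647 (SD, n = 3) and 21.4% ± 0.311 (SD, n = 3), so that its share overlapped between the time points. By level per kilobase, Srsf5 went from rank 3 of the 42 genes at 0 h to rank 16 at 48 h.

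The Tra2 genes encode SR-like activators of exon use. Tra2b had 31, 31.9 and 32.5 CPM at 0 h and 55.9, 52.6 and 44.2 CPM at 48 h. The libraries did not overlap, and the log2 fold change was 0.68 (SE 0.111, edgeR adjusted p = 0.000794). Tra2a, its close relative, had 20, 25 and 19.3 CPM at 0 h and 25, 21.3 and 23.2 CPM at 48 h, with a log2 fold change of 0.11 and a 95% interval from -0.18 to 0.40. The ratio of Tra2a to Tra2b in RPKM was 0.861, 1.04 and 0.789 at 0 h and 0.595, 0.538 and 0.699 at 48 h, without overlap.

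The hnRNP genes that passed the test were all higher at 48 h. Of the 15 genes, 10 rose (66.7%), none fell, and 5 did not pass the test, where 21.4% of all genes tested were higher and 19.3% were lower. All 15 had a positive log2 fold change, from 0.15 to 1.16 with a median of 0.49, and this sign held under each of the 15 alternative settings tried. In all 15 the 48 h libraries lay above the 0 h libraries, as they did in 27.8% of all genes tested. The summed level of the family was 911, 936 and 936 CPM at 0 h and 1232, 1280.2 and 1200.4 CPM at 48 h. The SR genes summed to 417, 521 and 438 CPM at 0 h and 481, 482 and 454 CPM at 48 h, where the time points overlapped. The ratio of SR to hnRNP reads was therefore 0.458, 0.557 and 0.468 at 0 h and 0.39, 0.377 and 0.378 at 48 h. With RPKM in place of CPM, the ratio was 0.645 ± 0.0924 (SD, n = 3) before surgery and 0.457 ± 0.0116 (SD, n = 3) after it.

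**Figure D2:**
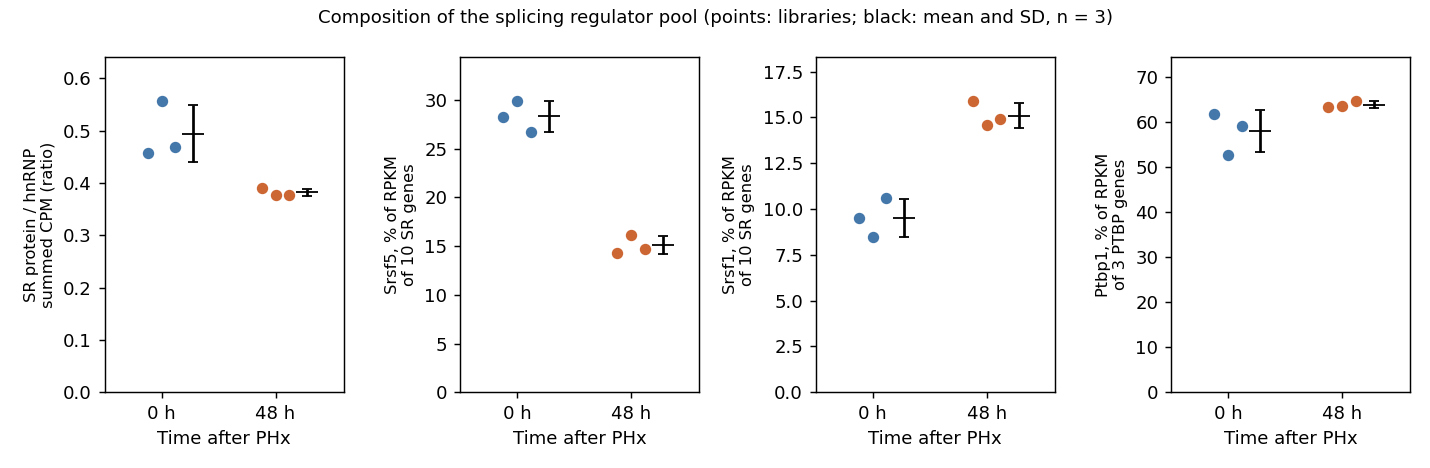
Composition of the splicing regulator pool at 0 h (blue) and 48 h after PHx (orange), with a point for each library and the mean and SD (n = 3) in black. From left to right, the panels show the ratio of summed SR to summed hnRNP CPM, the percent of SR gene RPKM on Srsf5 and on Srsf1, and the percent of PTBP RPKM on Ptbp1, and in each panel the orange and blue points do not overlap.

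Hnrnpa1 (ENSMUSG00000046434.16, chromosome 15, 103240432 to 103246692, plus strand), a repressor that opposes Srsf1 at many exons, had the largest increase of the 41 genes. Its level was 25.8, 26.3 and 22.9 CPM at 0 h and 58.4, 57.2 and 52 CPM at 48 h. The lowest 48 h library stood well above the highest 0 h library, and the log2 fold change was 1.16 (SE 0.104, edgeR adjusted p = 1.48e-05), a 2.24-fold increase. Hnrnpab (ENSMUSG00000020358.17, chromosome 11, 51600100 to 51606847, minus strand), an AU-rich RNA-binding protein, had 36.2, 24.7 and 29.9 CPM at 0 h and 58.3, 66.2 and 57.4 CPM at 48 h. These levels did not overlap, and the increase was 2-fold (edgeR adjusted p = 0.000288), with a 95% interval of the log2 fold change from 0.69 to 1.31. Exons of Phykpl on the other strand overlap 29.1% of the exon bases of Hnrnpab. Hnrnpa3 had 53.6, 46.9 and 51.5 CPM at 0 h and 83.6, 90 and 82.8 CPM at 48 h, a log2 fold change of 0.75 (SE 0.101, edgeR adjusted p = 0.000225). Hnrnpa1 and Hnrnpa3 have many near-identical copies, since 9 and 36 other genes match their transcripts at 95% identity over 200 bases or more, and those copies held 2.69% and 18% as many counts as the gene itself. With the counts of the copies added, the log2 fold changes were 1.14 for Hnrnpa1 and 0.60 for Hnrnpa3 (adjusted p = 1.75e-05 and 0.000766, edgeR).

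Hnrnph1, which binds G-rich runs, had 41.3, 60.2 and 40.1 CPM at 0 h and 68.2, 72.3 and 69.8 CPM at 48 h. The 0 h libraries were spread more widely than the 48 h libraries, and the log2 fold change was 0.57 (SE 0.151, edgeR adjusted p = 0.0121). Its relative Hnrnph2 on the X chromosome had 19.7, 19.7 and 20.2 CPM at 0 h and 28.8, 26.7 and 30 CPM at 48 h, a log2 fold change of 0.52 (SE 0.101, edgeR adjusted p = 0.00225). Hnrnpf, the third of this group, had 25.6, 16.2 and 27.7 CPM at 0 h and 36.2, 32.2 and 30.5 CPM at 48 h, with a log2 fold change of 0.51 (edgeR adjusted p = 0.0422). Hnrnpk, a poly(C)-binding protein, had 135, 129 and 137 CPM at 0 h and 185, 194 and 179 CPM at 48 h, a log2 fold change of 0.48 (SE 0.105, edgeR adjusted p = 0.00459). Hnrnpa0, Hnrnpd and Hnrnpa2b1 rose by log2 fold changes of 0.50, 0.49 and 0.43, with adjusted p-values of 0.0136, 0.00796 and 0.0212 in edgeR. Of these, Hnrnpd is the AUF1 protein that binds AU-rich messages. Of the calls of this family, 3 were lost in some settings. The call of Hnrnpf was lost with upper-quartile factors (log2 fold change 0.43), without 0 h replicates 1 or 2 (0.58 and 0.30) and without 48 h replicates 1 or 2 (0.44 and 0.53). That of Hnrnpa2b1 was lost with upper-quartile factors (0.34), without 0 h replicates 1 or 3 (0.32 and 0.41) and without 48 h replicate 2 (0.42), and that of Hnrnph1 without 0 h replicates 1 or 3 (0.48 and 0.46).

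The 5 hnRNP genes that did not pass were Hnrnpc, Hnrnpl, Hnrnpm, Hnrnpr and Hnrnpu, with log2 fold changes of 0.28, 0.20, 0.16, 0.15 and 0.15. They include the most abundant of the family per kilobase, Hnrnpl, which binds CA repeats, at 26 ± 0.448 (SD, n = 3) RPKM before surgery and 29.9 ± 1.64 (SD, n = 3) at 48 h. Their 95% intervals ran from 0.02 to 0.54, from -0.03 to 0.44, from -0.05 to 0.36, from -0.08 to 0.38 and from -0.09 to 0.40. Hnrnpu, a nuclear scaffold protein, had 138, 159.6 and 158 CPM at 0 h and 169.6, 169 and 168 CPM at 48 h. The gap between the time points was smaller than the spread at 0 h in this gene.

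All 3 genes of the PTBP family, which bind pyrimidine-rich tracts and mostly repress exons, rose. Of all genes tested, 21.4% were higher and 19.3% were lower. Ptbp1 (ENSMUSG00000006498.16, chromosome 10, 79854427 to 79864771, plus strand), the form found in most tissues, had 101, 74.4 and 99.4 CPM at 0 h and 167, 166 and 177 CPM at 48 h. The groups were far apart, and the log2 fold change was 0.89 (SE 0.135, edgeR adjusted p = 0.000468). Genes on the other strand, among them Plppr3, overlap 20.7% of its exon bases. Ptbp3 had 88.7, 92.1 and 98.3 CPM at 0 h and 140.1, 136 and 133 CPM at 48 h, a log2 fold change of 0.55 (SE 0.103, edgeR adjusted p = 0.00174). Ptbp2, the form known from neurons, had 11.7, 16 and 12.9 CPM at 0 h and 16.3, 18.8 and 23.7 CPM at 48 h, with neighbouring libraries of the time points almost touching. Its log2 fold change was 0.53 (SE 0.166, edgeR adjusted p = 0.0262), and the call was lost with upper-quartile factors (0.45), without 0 h replicates 1 or 3 (0.43 and 0.49) and without 48 h replicates 2 or 3 (0.56 and 0.38). Per kilobase, Ptbp1 took 61.8%, 52.7% and 59.1% of the family at 0 h and 63.2%, 63.4% and 64.6% at 48 h. Ptbp2 took 4.52% ± 1.19 (SD, n = 3) and 3.79% ± 0.64 (SD, n = 3), which overlapped. By level per kilobase, Ptbp1 went from rank 8 of the 42 genes to rank 2, behind Pcbp1 at both times.

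Among the regulators best known from muscle, heart and brain development, Rbfox2 and Mbnl2 rose while Celf1 and Mbnl1 did not pass the test. Rbfox2, which binds UGCAUG in introns, had 50.4, 52.2 and 49.7 CPM at 0 h and 69.4, 69.2 and 67.9 CPM at 48 h. Libraries of the same time point differed very little, and the log2 fold change was 0.44 (SE 0.0913, edgeR adjusted p = 0.00333). Mbnl2 had 75.2, 67.3 and 79.2 CPM at 0 h and 101, 92 and 111 CPM at 48 h, a log2 fold change of 0.46 (SE 0.115, edgeR adjusted p = 0.00966). Mbnl1 had 148, 142 and 147 CPM at 0 h and 117, 131 and 148 CPM at 48 h, with a log2 fold change of -0.14 and a 95% interval from -0.40 to 0.12. The ratio of Mbnl1 to Mbnl2 per kilobase was 1.26, 1.35 and 1.19 at 0 h and 0.744, 0.91 and 0.854 at 48 h, without overlap. The order of the pair on this scale rests on annotated exon lengths of 18717 and 11993 bases. In CPM, Mbnl1 lay above Mbnl2 in each library at both times. Celf1, which opposes the MBNL proteins at many exons, had 165, 171 and 159 CPM at 0 h and 160.1, 165 and 178 CPM at 48 h, with a log2 fold change of 0.02 and a 95% interval from -0.22 to 0.26.

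Of the KH domain group, Khdrbs1 (Sam68), a signal-dependent regulator of exon choice, rose from 29.9, 26.1 and 28.7 CPM at 0 h to 49.4, 49.2 and 41.2 CPM at 48 h. Its log2 fold change was 0.72 (SE 0.111, edgeR adjusted p = 0.000543), and the time points did not overlap. Pcbp1 and Pcbp2, which bind C-rich RNA, did not pass the test, with log2 fold changes of 0.22 and 0.08 and 95% intervals from -0.14 to 0.58 and from -0.14 to 0.30. Pcbp1 had 136, 84 and 119.5 CPM at 0 h and 129, 136 and 130.2 CPM at 48 h, so that a single low library at 0 h lay apart from the other 5, and it was the gene with the highest level per kilobase at both times. Antisense and neighbouring genes on the other strand overlap 32.7% of the exon bases of Pcbp2. The genes that recognise the 3′ splice site in every intron of the major class did not pass the test. U2af1 and U2af2, the subunits of the factor that binds the splice site and its pyrimidine tract, had log2 fold changes of -0.06 and 0.09, and Sf3b1, which holds the branch point, of 0.10. Their 95% intervals lay between -0.29 and 0.32. Near-identical copies of U2af1 held 32.4% as many counts as the gene itself, and its log2 fold change was -0.16 (edgeR adjusted p = 0.26) with those counts added.

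**Figure D3:**
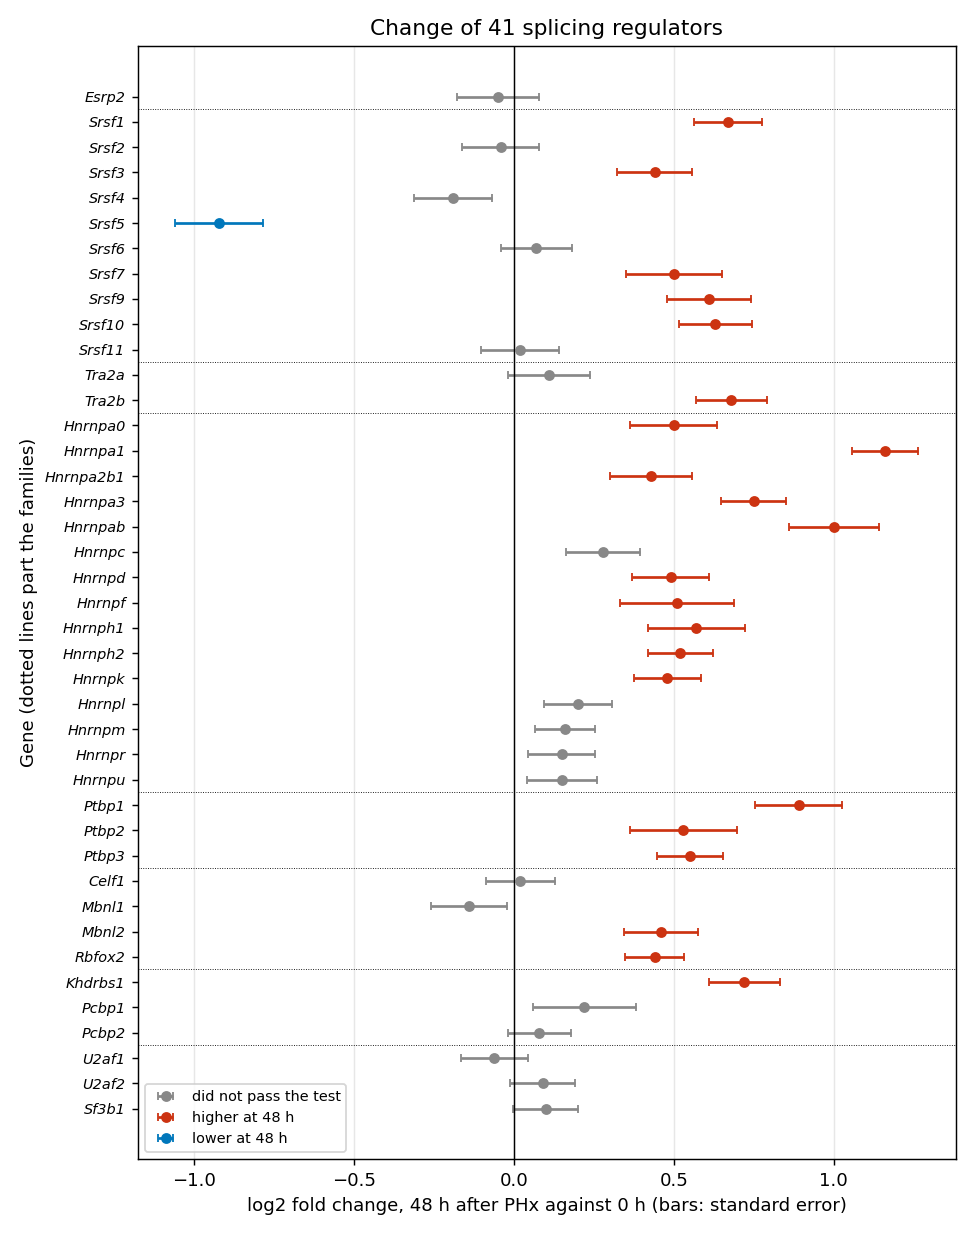
Log2 fold change of the 41 tested splicing regulators at 48 h after PHx against 0 h, with bars for the standard error, red for genes that passed the test as higher, blue for lower and grey for genes that did not pass. Dotted lines part the families, the hnRNP and PTBP genes all lie to the right of 0, Srsf5 alone is blue at -0.92, and Esrp2 and the 3 genes of 3′ splice site recognition lie within 0.10 of 0.

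The start regions of the genes that led these changes are shown because they were searched for letters that known transcription factors bind. They are the 250 bases before the RefSeq start site on GRCm38.p6 of the 3 largest increases, of the SR gene with the largest increase, and of Srsf5, read 5′ to 3′ on the strand of the gene. Capitals mark CCAAT (the box bound by NF-Y), CACGTG (the E-box bound by Myc), and TTCCCGC and TTGGCGC (forms of the E2F site) on either strand.
Hnrnpa1 chr15:103240147-103240396 (+ strand): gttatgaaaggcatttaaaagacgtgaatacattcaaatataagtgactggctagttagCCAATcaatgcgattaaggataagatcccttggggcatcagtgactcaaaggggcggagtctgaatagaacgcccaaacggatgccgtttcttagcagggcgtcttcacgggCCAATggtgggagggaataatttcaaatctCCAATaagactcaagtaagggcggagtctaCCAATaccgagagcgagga
Hnrnpab chr11:51606882-51607131 (- strand): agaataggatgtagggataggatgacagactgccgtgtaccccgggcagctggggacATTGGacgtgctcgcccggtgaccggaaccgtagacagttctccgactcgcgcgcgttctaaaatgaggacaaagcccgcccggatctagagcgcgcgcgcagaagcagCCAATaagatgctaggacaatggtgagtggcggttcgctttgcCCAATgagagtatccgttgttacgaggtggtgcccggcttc
Ptbp1 chr10:79854182-79854431 (+ strand): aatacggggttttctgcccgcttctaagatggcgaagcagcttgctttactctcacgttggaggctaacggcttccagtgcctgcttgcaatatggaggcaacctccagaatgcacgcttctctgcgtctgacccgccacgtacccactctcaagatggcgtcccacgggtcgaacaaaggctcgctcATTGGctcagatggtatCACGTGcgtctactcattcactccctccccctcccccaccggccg
Srsf1 chr11:88047123-88047372 (+ strand): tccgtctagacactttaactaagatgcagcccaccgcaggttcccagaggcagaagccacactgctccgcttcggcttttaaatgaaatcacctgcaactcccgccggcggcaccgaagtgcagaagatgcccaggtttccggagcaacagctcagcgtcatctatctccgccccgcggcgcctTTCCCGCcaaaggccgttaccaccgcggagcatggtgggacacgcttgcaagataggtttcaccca
Srsf5 chr12:80945249-80945498 (+ strand): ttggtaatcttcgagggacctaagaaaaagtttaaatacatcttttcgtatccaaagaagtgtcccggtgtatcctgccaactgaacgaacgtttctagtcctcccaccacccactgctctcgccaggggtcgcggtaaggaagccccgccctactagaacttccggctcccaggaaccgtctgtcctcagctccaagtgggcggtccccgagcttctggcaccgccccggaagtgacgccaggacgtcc
Hnrnpa1 holds 4 runs of CCAAT in this stretch and Hnrnpab holds 3, while Ptbp1 has 1 CCAAT and 1 CACGTG, Srsf1 has 1 TTCCCGC, and Srsf5 has none of the 4.

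RefSeq start windows of 250 bases before and 50 bases after the start were at hand for 36 of the 42 genes, 51 windows in all. CCAAT was in 51% of these windows, against 37.4% of the 32851 windows kept and 37.6% of those of genes tested. The windows of a single chromosome, which holds none of the 42 genes, had been left out. By gene, 14 of the 19 genes that rose had a CCAAT in a window and 7 of the 17 that did not rise, where 42.7% of the genes tested and 45.6% of the genes tested that were higher had it. Hnrnpc, Hnrnpl and Hnrnpr, which did not pass the test, hold 4 CCAAT in a window as Hnrnpa1 does. TTCCCGC was in 25.5% of the 51 windows against 7.67% of those of genes tested and 11.9% of those of genes that were higher, in 5 of 19 genes that rose and 5 of 17 that did not. CACGTG was in 15.7% of the windows against 9.48% and 9.67% in the same order, and TTGGCGC in 11.8% against 3.93% and 5.58%. The windows of the splicing regulators had a median GC content of 67.3%, against 60% for genes tested, and windows of the same gene can overlap. A CCAAT read from the other strand can share letters with TTGGCGC and is then counted for both. These matches are letters in a window and do not show that a factor was bound.

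The splicing regulators also differed from protein-coding genes as a whole in their annotated transcripts. In GENCODE M21, 25 of the 42 genes (59.5%) have at least 1 transcript classed for nonsense-mediated decay, against 20.8% of the 21951 protein-coding genes, and the median number of annotated transcripts was 9.5 against 3. No share was taken for the genes tested alone or for genes with as many transcripts. Of the 25 genes with such a transcript, 13 were higher and 1 was lower at 48 h, with a median log2 fold change of 0.43. Of the 16 tested genes without such a transcript, 9 were higher and none was lower, with a median of 0.45. Of all genes tested, 21.4% were higher and 19.3% lower, with a median of -0.00. The difference between these groups was not tested. Since the counts add all transcripts of a gene, a change in the balance between coding and decaying forms was not measured.

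Other parts of the splicing machinery were read from lists of general knowledge, drawn up with earlier results of these data known. Each count below stands against 21.4% higher and 19.3% lower among all genes tested. Of 66 tested genes of the core spliceosome, 32 were higher (48.5%) and 3 were lower (4.55%), with a median log2 fold change of 0.29. The largest increases were in Lsm3 (2.03) and Lsm2 (1.57), which encode ring proteins of the U6 particle. Lsm3 stood at only 0.88 CPM at 0 h and 3.62 CPM at 48 h. Of the 3 genes that fell, the largest decreases were in Prpf6 (-0.64) and Lsm7 (-0.58). Prpf6, which bridges the particles of the tri-snRNP, went from 52.9, 51.5 and 45.1 CPM to 29.4, 33.3 and 33 CPM (edgeR adjusted p = 0.000872). Among 15 genes that assemble or methylate the spliceosomal particles, 11 were higher (73.3%) and none was lower, with a median of 0.51. These were led by the SMN complex genes Gemin6 (1.72) and Gemin8 (1.21), at low levels of 2.97 and 1.29 CPM at 48 h. Of 18 further hnRNP-type genes, 12 were higher (66.7%) and 1 was lower (5.56%), led by Rbmx (0.87) and Nono (0.77), and the single decrease was in Cirbp (-0.82), the cold-inducible RNA-binding protein. For the 26 tested genes of other tissue-type regulators, 9 were higher (34.6%) and 1 was lower (3.85%). Nova1 (2.40) and Mbnl3 (0.99) led them at low levels of 0.527 and 1.79 CPM at 48 h, and Rbm5 fell by 0.34 on the log2 scale. Of 14 genes of the exon junction complex and of nonsense-mediated decay, 4 were higher, led by Magoh (0.50) and Eif4a3 (0.47), and 1 was lower, Smg6 (-0.31), and the 28.6% higher lay near the 21.4% of all genes tested.

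SR-related proteins carry similar tails without being classical SR proteins, and several kinases phosphorylate SR proteins. Of the SR-related genes 23.8% were called in either direction and of the kinase genes 33.3%, where 40.7% of all genes tested were called, and these differences were not tested. Of 21 tested SR-related genes, 4 were higher and 1 was lower, with a median log2 fold change of 0.03, led by Rnps1 (0.82) and Srrm1 (0.41) and with a decrease in Pnisr (-0.66). Among the 9 kinase genes, 1 was higher and 2 were lower. Srpk1, which phosphorylates SR proteins in the cytoplasm so that they enter the nucleus, had 35.9, 36.7 and 32.6 CPM at 0 h and 55.6, 52.1 and 56.1 CPM at 48 h. Its log2 fold change was 0.64 (SE 0.0982, edgeR adjusted p = 0.000529). Clk1, a nuclear SR kinase, had 66.5, 80.9 and 72.2 CPM at 0 h and 42.7, 44 and 36.7 CPM at 48 h. Its log2 fold change was -0.83 (SE 0.115, edgeR adjusted p = 0.000272), and Srpk2 fell by 0.28. The other Clk genes of the list did not pass the test. Neither Srpk1 nor Clk1 showed overlap between 0 h and 48 h. Of the 9 genes of the minor spliceosome, which removes a rare class of introns, 1 was higher (Snrnp25, 3.99-fold) and 1 was lower (Zrsr1, -0.46). Snrnp25 stood at only 0.506 CPM at 0 h and 2.02 CPM at 48 h.

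**Figure D4:**
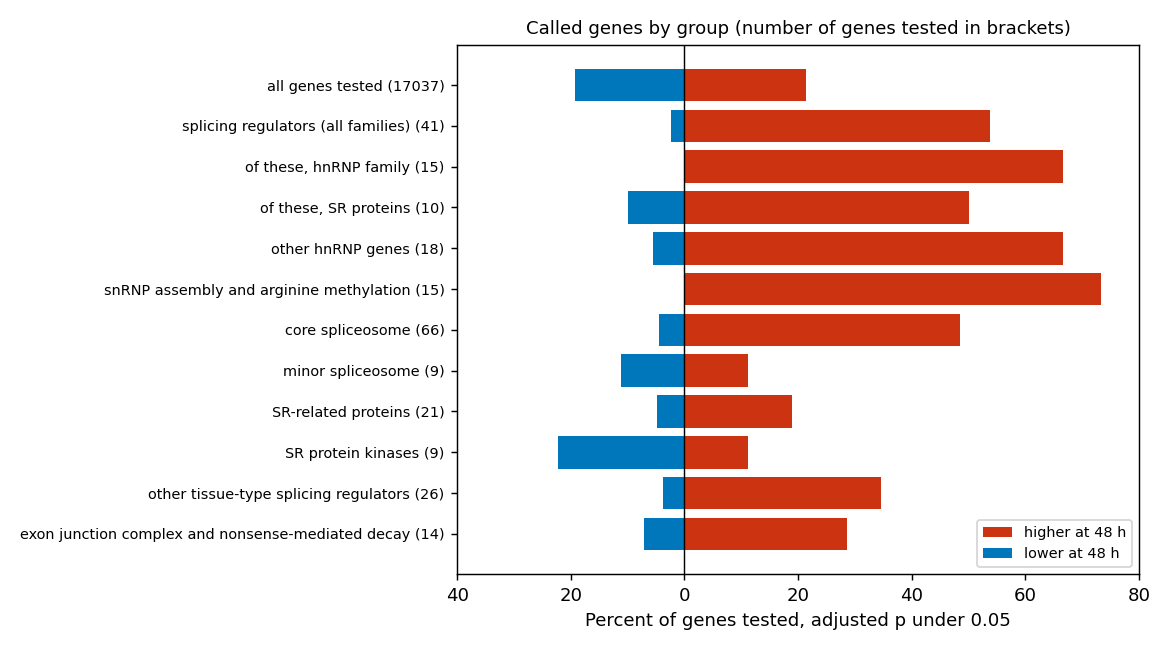
Percent of the genes tested that were higher (red, to the right) or lower (blue, to the left) at 48 h after PHx at an adjusted p under 0.05, for all genes, the splicing regulators, their hnRNP and SR families and the wider lists of splicing genes, with the number of genes tested in brackets. The red bars of the hnRNP family (66.7%), the further hnRNP genes (66.7%) and the particle assembly genes (73.3%) are the longest of those drawn, against 21.4% for all genes tested.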

How the data were processed

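RNA of 6 hepatocyte preparations was sequenced, 3 at 0 h and 3 at 48 h after PHx. The authors deposited raw counts per gene for each library, without normalization. The submitters' processing notes name FastQC 0.11.5, Trim Galore 0.6.4, STAR 2.6, HTSeq 0.12.4, DESeq2 and mm10, and how HTSeq treated strand is not given in the sources used here. Reads on no gene (24.3% to 32.7% of the reads listed) and on several genes (4.27% to 5.29%) were left out, and the lines for multiply aligned reads hold 0. All gene identifiers matched GENCODE M21, which gave names, coordinates and exon lengths.

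Tests used edgeR 4.0.16 under R 4.3.3 on the counts (TMM factors, quasi-likelihood test, time as the only term, Benjamini-Hochberg adjustment over all genes) on genes that reached 10 counts in 3 or more libraries. Genes with an adjusted p under 0.05 are called higher or lower, and the log2 fold change is 48 h against 0 h. Groups came from the sample titles. The labels do not say that libraries of a group come from separate animals, but the paper describes biological replicates. No pair of libraries looked like a repeat deposit, since the lowest mean chi-square over genes within a group was 25.8. Floors of 3 counts cover counting error only. Near-identical copies were sought with blastn 2.17.0 among GENCODE transcripts. The test was tried on simulated data first. Alternatives were DESeq2 1.42.0, limma-voom (limma 3.58.1), 3 other normalizations, 2 other filters, a replicate block and leaving out each library, and adding the counts of near-identical copies was chosen after seeing the data.

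Members and wider lists were chosen with earlier results of these data known. Values in each library are given for Esrp1, Esrp2 and the genes with the largest changes, and each wider list of splicing genes is given by its counts and by up to 2 of its largest increases and decreases, and each cell type list by its counts and summed level. Alb, Krt19, Krt7, Epcam and Cftr, as cell type checks, and Nf2, Csnk1d and Yap1 were named after their values were seen. Rbm23 of the lists was not analysed here.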

Additional observations from a re-analysis of the deposited data

How the results depend on the processing

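Under the 15 alternatives, 17 of the 23 calls among the splicing regulators held in each setting, among them those of Srsf5, Hnrnpa1, Hnrnpab and Ptbp1. The other 6 (Srsf3, Srsf7, Hnrnpa2b1, Hnrnpf, Hnrnph1 and Ptbp2) were lost in 2 to 5 settings each, without a change of sign. The number of genes called higher was 22 with DESeq2, limma-voom, RLE factors, both other filters, the replicate block and the copies added, 18 with upper-quartile factors, 28 with library size only, and 16 to 21 when 1 library was left out. Srsf5 was the single gene called lower in each setting. Library size only shifted the median log2 fold change of all genes by 0.20, and with it Esrp2, Srsf2, Srsf4, Mbnl1 and U2af1 changed sign to 0.15, 0.16, 0.01, 0.06 and 0.14, which is -0.05, -0.04, -0.19, -0.14 and -0.06 relative to that median. It also moved the calls over all genes to 5308 higher and 2110 lower, from 3638 and 3288. With upper-quartile factors, which ended 4 calls (Srsf7, Hnrnpa2b1, Hnrnpf and Ptbp2), Srsf6, Srsf11, Celf1 and Pcbp2 changed sign to -0.02, -0.07, -0.06 and -0.00. Leaving out 1 library gave -0.17 to 0.04 for Esrp2, -0.13 to 0.08 for Srsf2, -0.07 to 0.15 for Srsf11 and -0.02 to 0.05 for Celf1, so the sign of these values is not settled. With the replicate block, 22 genes were higher and 1 lower, and all 23 calls were kept. Libraries with the same number deviated from their groups with correlations of 0.0335, -0.0674 and -0.138. The sample titles give no link other than the number, and whether such libraries shared a batch was not tested.

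Esrp1 had too few reads for the test. Reads shared with near-identical copies or with genes on the other strand, which overlap over 20% of the exon bases of 6 of the genes, could not be assigned again from counts.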
